A study of Mus musculus with 16 samples.

Results

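The genes described here are 10 genes of the contractile apparatus of visceral smooth muscle: Acta2, Actg2, Myh11, Tagln, Cnn1, Des, Mylk, Lmod1, Synpo2 and Smtn. They were taken by gene symbol from a table of 21965 Ensembl genes, and all 10 were found in it. All 10 also had enough reads in the 16 libraries to be tested, among 13811 genes that did.

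RNA-seq was performed on the terminal ileum of 16 male C57BL/6 mice, with 1 library per mouse. WT mice and their fat-1 littermates (Fat1+/- in the sample names), which are heterozygous for a transgene of the n3 fatty acid desaturase of C. elegans, expressed in all tissues, were 8 to 10 weeks old at the start. They were fed Lieber-DeCarli liquid diet for 6 weeks, either with EtOH raised stepwise to 6% and held there for 3 weeks, or pair-fed (PF) the same calories with maltose dextrin in its place. There were 5 fat-1 EtOH, 3 WT EtOH, 4 fat-1 PF and 4 WT PF mice, and the transgene itself was not analysed here. The frozen segment was flushed, and no step that separates mucosa from muscle coat is described for it. The study also calls the material ileal mucosa and intestinal epithelial tissue, and how much of the muscle coat each piece held is not given in the sources used here.

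Smooth muscle contracts when calcium enters the cytoplasm and myosin light chain kinase is activated. The kinase phosphorylates the regulatory light chain of smooth muscle myosin, and the myosin then pulls on filaments of smooth muscle actin, while tropomyosin, caldesmon and calponin lie along these filaments and dense bodies and intermediate filaments pass on the force. In the small intestine this apparatus fills the circular and longitudinal layers of the muscle coat and the thin muscularis mucosae, and it drives mixing and peristalsis. Transcription of many of its genes is driven by serum response factor (SRF) with its partner myocardin, which bind a DNA element called the CArG box.

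The libraries held 8422645 to 11438539 counted reads. Levels are given as CPM, a gene's reads relative to a library total that was corrected by the trimmed mean of M-values (TMM). In 3 EtOH libraries, those of WT EtOH mouse 2 and fat-1 EtOH mice 3 and 4, genes of the large intestine (among them Car1, Aqp8 and B3gnt6) summed to 4420, 11500 and 12450 CPM, against 12.8 to 122 CPM in the other 13. In fat-1 PF mice 2 and 4, genes of the ileal enterocyte (Fabp6, Slc10a2, Slc51a and Slc51b) summed to 461 and 404 CPM, against 2370 to 8034 CPM in the 12 libraries other than these and fat-1 EtOH mice 3 and 4, which had 913 and 1866 CPM. Tests of the contractile genes, and the counts of other gene lists for the comparisons named there, are given with and without these libraries. PF libraries were numbered 1 to 8 and EtOH libraries 9 to 16, so diet and library order cannot be told apart.

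The 10 genes together took 0.119 to 0.192% of the counts in PF libraries and 0.281 to 0.600% in EtOH libraries. Every EtOH library was above every PF library in this share. This share depends on the RNA of all cells in the segment. Its rise can come from more smooth muscle, from less RNA of other cells or from more RNA of these genes per cell. These cannot be told apart in whole tissue and were not tested.

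**Figure D1:**
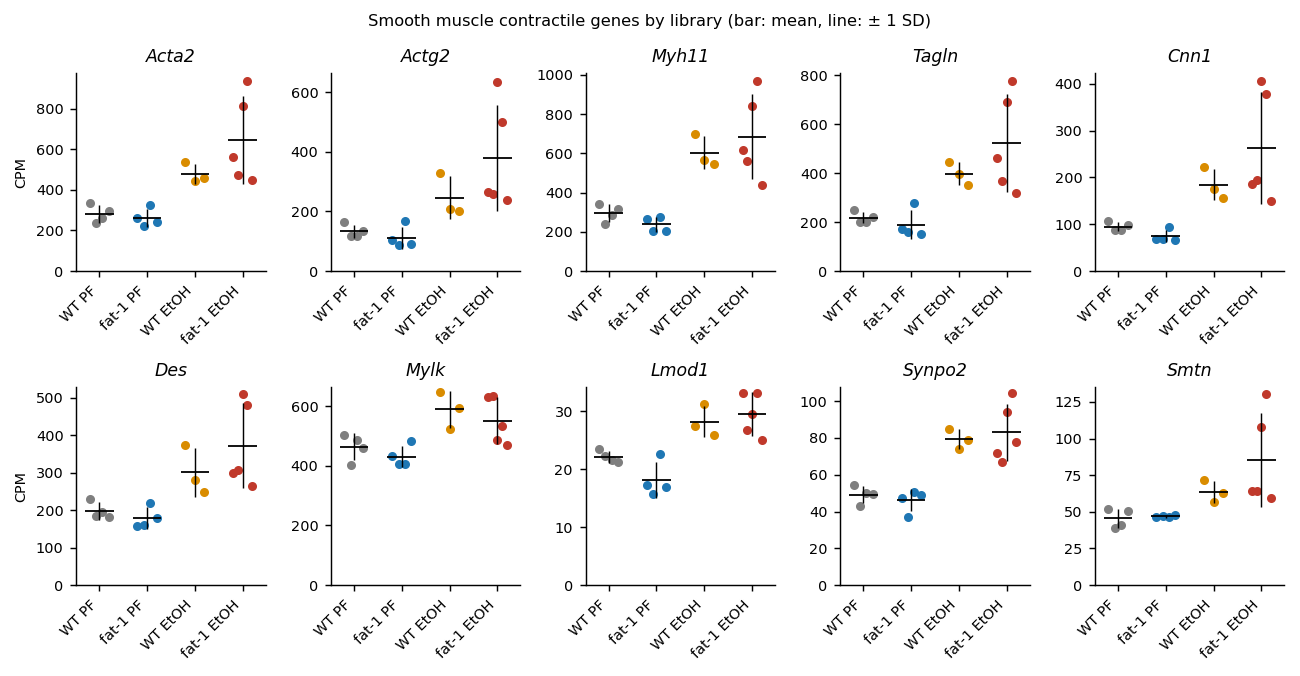
Level of each of the 10 contractile genes in CPM (y axis, from 0) in each library, by group (x axis), with the group mean as a bar and 1 SD as a line. For 9 of the 10 genes, all but Mylk, every EtOH library lies above every PF library, and 2 fat-1 EtOH mice lie highest for most genes.

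Per kilobase of exon (RPKM, over all annotated exons of the gene), the thin filament genes led. In WT PF mice, mean levels were 128 ± 20.1 RPKM for Acta2, 110 ± 12.1 for Tagln and 85.8 ± 14.1 for Actg2 (SD, n = 4), and neighbours in this order overlapped within 1 SD. Des (52.6 ± 6.10), Mylk (41.2 ± 3.96), Myh11 (39.0 ± 5.73) and Cnn1 (34.8 ± 3.60) followed, and the ranges of the last 3 mean ± 1 SD overlapped. Smtn (10.4 ± 1.48), Lmod1 (5.60 ± 0.256) and Synpo2 (3.76 ± 0.367) were lowest. The first 3 and the last 3 places were the same in all 4 groups. Between them the order varied: Mylk was in place 5 in both PF groups and in place 7 in both EtOH groups.

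Acta2 encodes the smooth muscle alpha actin that is found in vascular and visceral muscle (ENSMUSG00000035783, GRCm38, chr19:34241090-34255590, minus strand). Its promoter is shown because it was the only one of the contractile genes' promoters at hand with boxes resembling the SRF element. The stretch below, chr19:34255374-34255523 of GRCm38.p6 read on the minus strand, is from the promoter table of RefSeq, and capitals mark the CArG-like boxes, which begin 84 and 34 bases before the annotated start of transcription.
Acta2 promoter: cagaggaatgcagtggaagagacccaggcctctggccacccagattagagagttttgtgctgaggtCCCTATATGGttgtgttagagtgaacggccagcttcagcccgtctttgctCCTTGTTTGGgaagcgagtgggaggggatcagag

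A CArG box was searched as CC, then 6 bases that are all A or T, then GG, a pattern that reads alike on both strands, from 250 bases before to 50 bases after each annotated start. A CArG-like box needed at least 5 of these 6 bases to be A or T, so it includes every CArG box. The table held promoters of 7 of the 10 contractile genes, and not of Actg2, Myh11 and Tagln. None of the 7 held a CArG box and 1 (14.3%), Acta2, held a CArG-like box, against 1.81% and 11.3% of all 27025 genes. Of 36 genes of the smooth muscle pathway described below that have a promoter in the table, 6 (16.7%) held a CArG box and 11 (30.6%) a CArG-like box. These are matches of letters, and boxes outside these windows were not searched. The boxes of the myosin regulatory light chain gene Myl9, of vinculin (Vcl) and of Srf itself, which has 2, are shown for comparison, each as 40 bases of GRCm38.p6 with the box in capitals.
Myl9, chr2:156775288-156775327, plus strand: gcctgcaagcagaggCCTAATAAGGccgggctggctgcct
Vcl, chr14:20929156-20929195, plus strand: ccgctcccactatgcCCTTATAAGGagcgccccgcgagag
Srf, box at -82 from the start, chr17:46556220-46556259, minus strand: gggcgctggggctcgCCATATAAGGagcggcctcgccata
Srf, box at -62 from the start, chr17:46556200-46556239, minus strand: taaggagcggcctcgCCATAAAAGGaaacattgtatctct

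Acta2 was at 336, 235, 260 and 296 CPM in WT PF mice and at 263, 223, 323 and 241 CPM in fat-1 PF mice. It was at 536, 444 and 460 CPM in WT EtOH mice and at 561, 471, 812, 938 and 450 CPM in fat-1 EtOH mice. No EtOH mouse overlapped with a PF mouse, and fat-1 EtOH mice 3 and 4 stood above the rest of their group. With EtOH the level was 1.70-fold higher in WT mice (log2 fold change 0.77 ± 0.24, SE, adjusted p = 0.194, edgeR's quasi-likelihood test, adjusted by Benjamini-Hochberg over all genes tested) and 2.46-fold higher in fat-1 mice (1.30 ± 0.22, adjusted p = 6.67e-04).

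Actg2 encodes the gamma actin of visceral muscle, the main actin isoform of the gut's muscle coat (ENSMUSG00000059430, chr6:83512905-83536265, minus strand). It was at 165, 119, 118 and 134 CPM in WT PF, at 105, 88.4, 167 and 90.0 CPM in fat-1 PF, at 329, 208 and 200 CPM in WT EtOH and at 264, 259, 635, 498 and 237 CPM in fat-1 EtOH mice. The lowest EtOH value lay above the highest PF value, by less than the SD of either EtOH group. The change with EtOH was 0.88 ± 0.34 in WT mice (1.84-fold, adjusted p = 0.277) and 1.75 ± 0.32 in fat-1 mice (3.37-fold, adjusted p = 0.00113).

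Myh11, the heavy chain of smooth muscle myosin and thus the motor itself (ENSMUSG00000018830, chr16:14194535-14291372, minus strand), was at 343, 241, 285 and 314 CPM in WT PF and at 264, 206, 275 and 205 CPM in fat-1 PF mice. It was at 700, 565 and 547 CPM in WT EtOH and at 616, 561, 842, 970 and 438 CPM in fat-1 EtOH mice, so the groups did not overlap in either genotype. The log2 fold change was 1.03 ± 0.23 in WT mice (2.04-fold, adjusted p = 0.115) and 1.53 ± 0.21 in fat-1 mice (2.88-fold, adjusted p = 3.08e-04). Of the 10 genes, Myh11 had the largest change in WT mice.

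Tagln (SM22, an actin-binding protein, ENSMUSG00000032085, chr9:45929619-45936058, minus strand) ranged from 199 to 252 CPM in WT PF and from 150 to 277 CPM in fat-1 PF mice. It ranged from 350 to 444 CPM in WT EtOH and from 319 to 776 CPM in fat-1 EtOH mice. It rose by 1.46 ± 0.26 on the log2 scale in fat-1 mice (2.76-fold, adjusted p = 9.55e-04), and the change in WT mice was 0.86 ± 0.28 (1.82-fold, adjusted p = 0.215). The exons of Tagln overlap those of an antisense transcript and of Pcsk7 on the other strand in 53.3% of 75-base windows, and the strand setting of the counting is not given in the sources used here, so its counts are less certain than those of the others. For Acta2, Actg2, Myh11, Cnn1, Lmod1 and Synpo2 no window was shared with another annotated gene, and for Smtn, Des and Mylk 6.57%, 3.95% and 3.55% were.

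Cnn1, calponin, binds actin and restrains the myosin motor (ENSMUSG00000001349, chr9:22099216-22109630, plus strand). It was at 107, 86.7, 87.7 and 98.8 CPM in WT PF, at 69.3, 69.5, 94.0 and 67.0 CPM in fat-1 PF, at 222, 175 and 157 CPM in WT EtOH and at 185, 195, 406, 378 and 151 CPM in fat-1 EtOH mice. EtOH mice 3 and 4 of the fat-1 genotype had about as much Cnn1 as each other and stood far above the other 3. Cnn1 had the largest rise of the 10 genes in fat-1 mice, 1.81 ± 0.27 on the log2 scale (3.51-fold, adjusted p = 4.31e-04), against 0.96 ± 0.29 in WT mice (1.94-fold, adjusted p = 0.191).

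Lmod1, leiomodin, nucleates actin filaments (ENSMUSG00000048096, chr1:135324807-135368065, plus strand). It was low, at 21.2 to 23.5 CPM in WT PF, 15.7 to 22.6 CPM in fat-1 PF, 26.0 to 31.2 CPM in WT EtOH and 25.0 to 33.2 CPM in fat-1 EtOH mice. Its values were the most even among WT PF mice, with a coefficient of variation of 4.57%, which is below the 7.03% that counting alone gives at 194 to 215 reads, and its fat-1 EtOH mice 3 and 4 did not stand apart, at 29.5 and 33.2 CPM. The change was 0.35 ± 0.13 in WT mice (1.28-fold, adjusted p = 0.264) and 0.70 ± 0.12 in fat-1 mice (1.63-fold, adjusted p = 7.57e-04).

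Synpo2, synaptopodin 2 or myopodin, binds actin and alpha-actinin (ENSMUSG00000050315, chr3:123076519-123236149, minus strand), and Smtn, smoothelin, associates with actin filaments of contractile cells (ENSMUSG00000020439, chr11:3517523-3540612, minus strand). Synpo2 ranged from 37.2 to 54.5 CPM over the PF mice, from 74.2 to 84.9 CPM in WT EtOH and from 67.1 to 104 CPM in fat-1 EtOH mice. Smtn ranged from 38.9 to 51.8 CPM over the PF mice, from 56.8 to 71.4 CPM in WT EtOH and from 59.7 to 131 CPM in fat-1 EtOH mice. In both genes the EtOH groups lay above the PF groups without overlap. Synpo2 changed by 0.69 ± 0.15 in WT mice (1.61-fold, adjusted p = 0.113, the smallest of the 10 in that genotype) and by 0.85 ± 0.13 in fat-1 mice (1.80-fold, adjusted p = 5.28e-04). For Smtn the values were 0.48 ± 0.23 (1.40-fold, adjusted p = 0.365) and 0.86 ± 0.21 (1.81-fold, adjusted p = 0.00614).

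Des, desmin, is the intermediate filament of muscle that ties the contractile units together (ENSMUSG00000026208, chr1:75360329-75368579, plus strand). It was at 231, 185, 194 and 181 CPM in WT PF, at 157, 160, 220 and 179 CPM in fat-1 PF, at 374, 280 and 249 CPM in WT EtOH and at 298, 309, 510, 481 and 265 CPM in fat-1 EtOH mice. All EtOH mice were above all PF mice, and fat-1 EtOH mice 3 and 4 were again highest. The log2 fold change was 0.61 ± 0.23 in WT mice (1.52-fold, adjusted p = 0.254) and 1.06 ± 0.20 in fat-1 mice (2.08-fold, adjusted p = 0.00162).

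Mylk, the myosin light chain kinase that switches contraction on, is also expressed outside muscle from other promoters of the gene (ENSMUSG00000022836, chr16:34745210-35002420, plus strand). It was at 505, 403, 488 and 460 CPM in WT PF, at 432, 406, 406 and 482 CPM in fat-1 PF, at 648, 525 and 595 CPM in WT EtOH and at 632, 635, 487, 535 and 469 CPM in fat-1 EtOH mice. It was the only one of the 10 whose PF and EtOH mice overlapped, since fat-1 EtOH mouse 5 was below fat-1 PF mouse 4 and both fat-1 EtOH mice 3 and 5 were below WT PF mouse 1. In the reported fit its change was the smallest of the 10 in both genotypes, 0.34 ± 0.14 in WT mice (1.27-fold, adjusted p = 0.289) and 0.35 ± 0.12 in fat-1 mice (1.28-fold, adjusted p = 0.0334). The call in fat-1 mice was lost in 7 of its 27 alternative settings, among them the fit of only the PF and EtOH groups of fat-1 mice (adjusted p = 0.0855). Its place was not fixed. Lmod1 was lower in WT mice with limma voom (0.310, Mylk 0.373) and without the 3 libraries with large intestine genes (0.273, Mylk 0.421). Without these 3, Smtn was lower in fat-1 mice (0.442, Mylk 0.453).

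**Figure D2:**
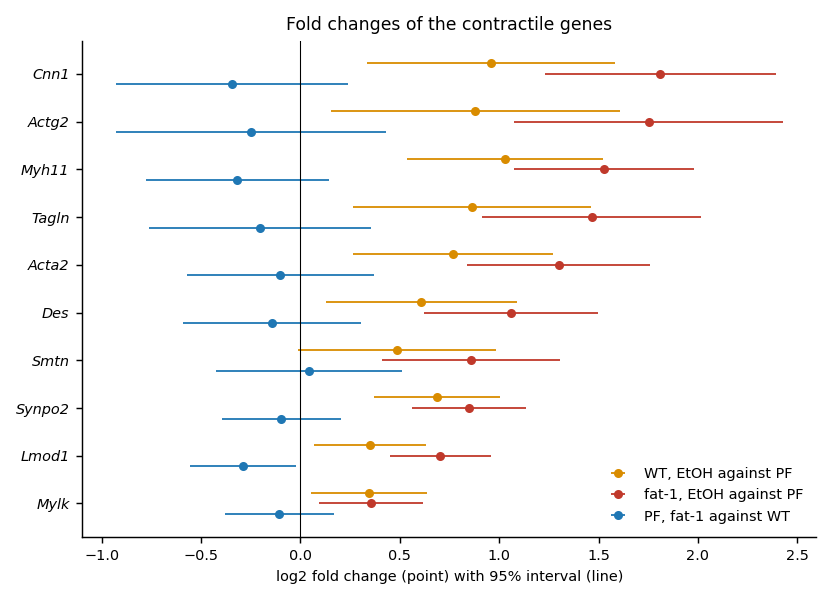
Log2 fold changes of the 10 genes (x axis) with 95% intervals as lines, for EtOH against PF in WT mice, EtOH against PF in fat-1 mice, and fat-1 against WT in PF mice. The fat-1 EtOH intervals lie above 0 for all 10 genes, and the PF genotype intervals include 0 for all but Lmod1.

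In fat-1 mice, 10 of 10 contractile genes were called higher with EtOH at an adjusted p of 0.05, where 18.7% of all genes tested were, and 9 of 10 did not overlap between the groups, against 10.6% of all genes. Their median log2 fold change was 1.18, against 0.05 over all genes tested. Without the 3 libraries with large intestine genes, 10 of 10 were still called (13.9% of all genes were called higher there), with a median of 0.83 and values from 0.44 (Smtn) to 1.27 (Cnn1). Without the 2 fat-1 PF libraries low in ileal enterocyte genes, 8 of 10 were called (5.99% of all genes higher), Mylk (adjusted p = 0.101) and Smtn (adjusted p = 0.0577) not.

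In WT mice, 0 of 10 were called by edgeR's quasi-likelihood test, which called 0.00724% of all genes higher in that comparison and 0.0796% in either direction. All 10 were higher, with a median of 0.73 against 0.01 over all genes. All 10 were also higher in every EtOH mouse than in every PF mouse, against 12.2% of all genes. An unadjusted p under 0.05 was reached by 9 of 10, all but Smtn, against 7.05% of all genes. The count depended on the test and on the libraries in the fit. The Wald test of DESeq2 called 2 of 10 (Myh11 and Synpo2, 1.86% of all genes in either direction). Limma voom with sample weights called 10 (20.7%). The same edgeR test on the WT mice alone called 8 (8.32%), all but Mylk and Lmod1. Its estimate of the spread left out the fat-1 mice. Without the 3 libraries with large intestine genes, edgeR called 3 (Myh11, Cnn1 and Synpo2, each with adjusted p = 0.0449, 0.189% of all genes), and WT EtOH then held 2 mice.

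Averaged over both genotypes, 10 of 10 contractile genes rose with EtOH (18.3% of all genes tested were called higher), with log2 fold changes from 0.35 ± 0.09 for Mylk (adjusted p = 0.00945) to 1.38 ± 0.20 for Cnn1 (adjusted p = 3.60e-04). The smallest adjusted p was that of Myh11, 1.90e-04, at 1.28 ± 0.16. In 9 of 10 genes all 8 EtOH mice were above all 8 PF mice, which 3.13% of all genes showed. All 10 calls held in each of the 26 alternative settings tried for this comparison, including that without the 3 libraries (0.44 for Mylk to 1.14 for Myh11).

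**Figure D3:**
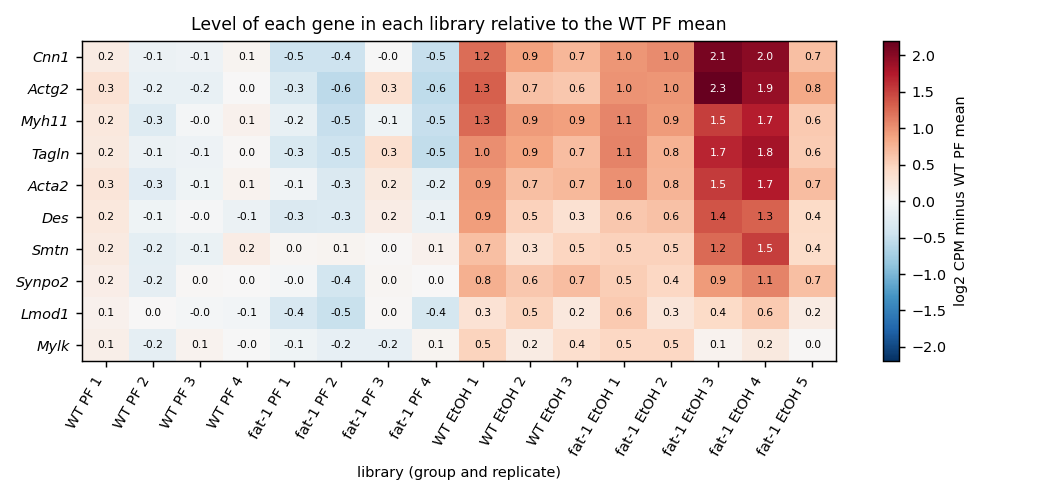
Level of each of the 10 genes (rows) in each of the 16 libraries (columns) as log2 CPM minus the mean of the WT PF mice, with the value printed in each cell. EtOH libraries are at or above 0 for all genes, with fat-1 EtOH mice 3 and 4 darkest except for Mylk and Lmod1.

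The spread among fat-1 EtOH mice was wide. Mice 3 and 4 had the 2 highest values of all 16 libraries for 8 of the 10 genes, all but Mylk and Lmod1, and mouse 5 had the lowest value of its group for 9. Mouse 5 also had the highest sums of B cell (263 CPM, at most 51.3 in the rest), endothelial (144, at most 68.2) and adipocyte genes (810, at most 457). A link of these sums to its contractile genes was not tested. The coefficient of variation in that group was 30.6 to 47.2% for Acta2, Actg2, Myh11, Tagln, Cnn1, Des and Smtn, and 12.6 to 18.9% for Lmod1, Mylk and Synpo2. Mice 3 and 4 are also those with the most large intestine RNA, whereas WT EtOH mouse 2, with 4420 CPM of it, was the highest of its group for Lmod1 alone. In the other groups, WT PF mouse 1 was highest for 10 of 10 genes, WT EtOH mouse 1 for 9 and fat-1 PF mouse 3 for 8. Mylk and Smtn were exceptions in fat-1 PF mice, where mouse 3 was lowest for both by little. Its Mylk was at 405.79 CPM and that of mouse 2 at 405.82 CPM. Smtn was at 46.2 to 48.1 CPM in this group. Its coefficient of variation there was 1.82%, below the 5.16% that counting alone gives.

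Between genotypes no contractile gene was called. In PF mice, 9 of 10 were lower in fat-1 than in WT mice, with log2 fold changes from -0.34 (Cnn1, 95% interval -0.93 to 0.24) to 0.04 (Smtn, -0.42 to 0.51) and a median of -0.17, against 0.02 over all genes. edgeR called 0 of 10 and 0% of all genes. Lmod1 alone had an unadjusted p under 0.05 (-0.29 ± 0.13, adjusted p = 0.358), against 3.48% of all genes in that direction, and DESeq2 and limma voom also called 0 of 10. In EtOH mice, 9 of 10 were higher in fat-1 mice, from -0.10 (Mylk, -0.38 to 0.19) to 0.62 (Actg2, -0.09 to 1.34), with a median of 0.35 against 0.04. edgeR called 0 of 10 (0.00724% of all genes in either direction), 0 had an unadjusted p under 0.05 (3.4% of all genes higher), and DESeq2 and limma voom called 0. This direction rested on the libraries with large intestine genes: without them 9 of 10 were lower in fat-1 EtOH mice, with a median of -0.10. In both diets the fat-1 and WT mice overlapped for all 10 genes. Over all genes, fat-1 mice lay wholly above WT mice for 4.25% and below for 2.62% in PF mice, and for 1.43% and 1.02% in EtOH mice.

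The difference in the EtOH effect between fat-1 and WT mice, tested as an interaction, was called for 0 of 10 genes (0% of all genes). It ran from 0.01 (Mylk, 95% interval -0.38 to 0.40) to 0.87 (Actg2, -0.11 to 1.86), with a median of 0.48 against 0.01 over all genes. Cnn1 alone had an unadjusted p under 0.05 (0.85 ± 0.40, adjusted p = 0.595, against 3.5% of all genes higher), DESeq2 and limma voom called 0, and the median was 0.12 without the 3 libraries. The larger change of these genes in fat-1 mice than in WT mice is therefore not shown to differ by genotype.

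To compare the changes of the 10 genes free of scaling, the log2 ratio of each gene to the mean of the other 9 was taken within each library. In fat-1 mice this ratio was higher with EtOH by 0.65 for Cnn1, 0.62 for Actg2 and 0.40 for Myh11, and lower by -0.86 for Mylk, -0.47 for Lmod1 and -0.38 for Smtn. In WT mice it was higher by 0.38 for Myh11 and 0.28 for Cnn1 and lower by -0.39 for both Mylk and Lmod1. The groups stood apart in both genotypes for Myh11, Cnn1 and Lmod1. Over the 10 genes and 4 comparisons of 2 groups, the smallest adjusted p of an exact two-sided permutation test was 0.163, and the smallest unadjusted p that the test allows is 0.0571 in WT mice and 0.0159 in fat-1 mice, so none passed. In fat-1 mice without the 3 libraries with large intestine genes the ratio was 0.44 for Cnn1, 0.42 for Actg2, 0.37 for Myh11, -0.48 for both Mylk and Smtn and -0.23 for Lmod1, and without the 2 low in ileal enterocyte genes it was 0.65 for Cnn1, 0.45 for Actg2, 0.32 for Myh11, -0.68 for Mylk, -0.48 for Lmod1 and -0.22 for Smtn. The smallest adjusted p was 0.381 in both. The smallest unadjusted p of the permutation test in fat-1 mice was 0.0571 without the 3 libraries and 0.0952 without the 2. With so few mice the test allows none smaller, so no ratio could have passed there.

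**Figure D4:**
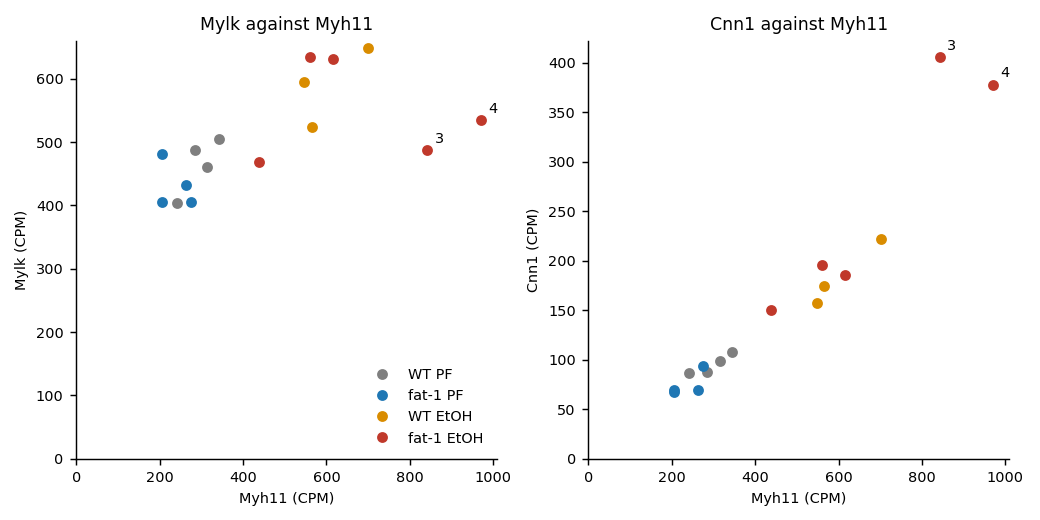
Mylk (left, y axis, CPM) and Cnn1 (right, y axis, CPM) against Myh11 (x axis, CPM) in the 16 libraries, coloured by group, with fat-1 EtOH mice 3 and 4 numbered. Cnn1 and Myh11 are both highest in these 2 mice, whereas their Mylk is 487 and 535 CPM, below 5 and 4 EtOH mice that have less Myh11.

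After the group means were taken away, the genes' likeness to each other over the 16 libraries was described by Pearson's r of each to the mean of the other 9. It was 0.98 for Acta2, 0.95 for Cnn1, Myh11 and Tagln, 0.93 for Actg2 and Des, 0.86 for Smtn, 0.80 for Synpo2, 0.58 for Lmod1 and -0.06 for Mylk. Without the 3 libraries with large intestine genes Mylk was at 0.38, Lmod1 at 0.77, Smtn at 0.55 and Synpo2 at 0.51. Among the 13801 other genes tested, the 10 most like the mean of the contractile genes were Myl9 (r = 0.94), Csrp1 (0.94), Ckm (0.93), Tpm2 (0.93), Sparcl1 (0.93), Tusc3 (0.92), Nrbp2 (0.92), Sv2c (0.92), Pam (0.92) and Cd109 (0.91), against a median r of -0.03. Myl9 is the light chain that Mylk phosphorylates, Csrp1 a LIM protein of smooth muscle, Tpm2 a tropomyosin and Ckm the muscle creatine kinase. By Spearman's rho, all 10 were among the first 100 and 2 among the first 10. The points share depth and scaling, and 2 libraries weigh heavily in them, so these values are a description.

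Of 20 contractile and cytoskeletal partners, 17 were called higher and 0 lower with EtOH in fat-1 mice (18.7% of all genes were called higher) and also averaged over genotypes (18.3%). In WT mice 0 were called (0.00724%), or 1 without either the 3 or the 2 libraries, and 13 were higher at an unadjusted p under 0.05 (7.05%). Their log2 fold changes had a median of 0.93 in fat-1 and of 0.47 in WT mice, or of 0.69 and 0.58 without the 3 libraries with large intestine genes, and the interaction was called by edgeR for 0 of 20 (2 had an unadjusted p under 0.05). Cald1, caldesmon, rose by 0.90 ± 0.09 averaged over genotypes (adjusted p = 8.29e-05), and Flna, filamin A, which crosslinks actin, by 1.03 ± 0.12 (adjusted p = 1.71e-04). Both were higher in every EtOH than in every PF mouse. Averaged over genotypes, 18 of the 20 were called higher without the 3 libraries with large intestine genes (15.9% of all genes) and 16 without the 2 low in ileal enterocyte genes (12.1%). In fat-1 mice the counts were 18 (13.9%) and 11 (5.99%). Ldb3, a Z-disc protein of striated muscle, was not called, at -0.41 ± 0.24 (adjusted p = 0.199).

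Of 15 genes of calcium handling and contraction signalling, 10 were called higher and 1 lower averaged over genotypes, where 18.3% and 17.6% of all genes were, and 8 and 2 in fat-1 mice, where 18.7% and 18.8% were. The calcium and potassium channel genes Cacna1c (1.05 ± 0.16, adjusted p = 4.30e-04) and Kcnma1 (1.31 ± 0.30, adjusted p = 0.00405) and the myosin phosphatase subunit Ppp1r12b (0.71 ± 0.09, adjusted p = 2.41e-04) rose. Without the 3 libraries 9 were called higher (15.9% of all genes) and 1 lower averaged over genotypes, as they were without the 2 (12.1% higher). In fat-1 mice 9 were called higher (13.9%) and 0 lower without the 3, and 3 (5.99%) and 0 without the 2.

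Of 6 transcription factors of smooth muscle, 2 were called higher averaged over genotypes (against 18.3% of all genes) and in fat-1 mice (18.7%). Leaving out the 3 or the 2 libraries left 2 called averaged over genotypes, and 1 and 0 in fat-1 mice. Myocd, myocardin, rose 2.10-fold from a low level (means of 1.18 CPM over the 8 PF and 2.48 CPM over the 8 EtOH mice, 2 to 38 reads per library, 1.07 ± 0.30, adjusted p = 0.0123), and the related coactivator Mrtfb rose by 0.54 ± 0.09 (adjusted p = 9.24e-04). Srf was at 80.7 CPM in PF and 78.1 CPM in EtOH mice (-0.02 ± 0.16, adjusted p = 0.934). Of 3 receptors that trigger contraction, the neurokinin receptor gene Tacr2 was called (1.11 ± 0.30, adjusted p = 0.0121) at means of 0.845 CPM over the 8 PF and 1.93 CPM over the 8 EtOH mice, or 2 to 42 reads per library, while the muscarinic receptor genes Chrm2 (0.37 ± 0.19, adjusted p = 0.128) and Chrm3 (0.16 ± 0.20, adjusted p = 0.547) were not. For Tacr2 the change was 0.11 ± 0.44 in WT mice (adjusted p = 0.932) and 2.10 ± 0.42 in fat-1 mice (adjusted p = 0.00211), and the interaction was 1.99 ± 0.61 (adjusted p = 0.595) and was not called. Without the 3 libraries with large intestine genes the averaged change of Tacr2 was 0.78 (adjusted p = 0.0655) and that of Chrm2 was 0.53 and was called (adjusted p = 0.0181). In fat-1 mice 1 receptor gene was called, 2 without the 3 libraries and 1 without the 2. Limma voom called 2 of the 3, both in fat-1 mice (26.8% of all genes in either direction) and averaged over genotypes (42.5%).

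Some markers of other cells of the muscle coat and the wall were also called higher with EtOH, and their part in the result was not tested. The counts that follow are for EtOH averaged over genotypes, where 18.3% of all genes were called higher (15.9% without the 3 libraries and 12.1% without the 2). For the interstitial cells of Cajal, the pacemakers of the gut, Kit (1.42 ± 0.28, adjusted p = 0.00208) and Ano1 (0.85 ± 0.21, adjusted p = 0.0072), both of 2 markers, were called higher averaged over genotypes, with summed levels of 12.6 to 31.5 CPM in PF and 37.4 to 121 CPM in EtOH mice. Of 8 enteric neuron genes 5 were called higher, among them Nos1 (1.86 ± 0.38, adjusted p = 0.00236) and Prph (1.01 ± 0.24, adjusted p = 0.00593), with sums of 22.1 to 34.7 and 34.1 to 81.0 CPM. Of 4 enteric glia genes 2 were, among them Gfap (1.64 ± 0.54, adjusted p = 0.0284), with sums of 3.40 to 6.78 and 5.19 to 18.7 CPM, and limma voom called 0 of the 4 (42.5% of all genes in either direction). In all of these the 2 highest libraries were fat-1 EtOH mice 3 and 4. Without the 3 libraries with large intestine genes, 2 of 2 Cajal cell, 3 of 8 neuron and 0 of 4 glia genes were called higher, and without the 2 low in ileal enterocyte genes 2, 2 and 0.

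Of 7 fibroblast genes, 7 were called higher averaged over genotypes, by 0.45 (Col1a1) to 0.84 (Dpt), with sums of 247 to 390 CPM in PF and 368 to 550 CPM in EtOH mice. Of 3 pericyte genes 1 was, Rgs5 (0.62 ± 0.11, adjusted p = 0.001), with sums of 187 to 266 and 269 to 423 CPM. Both of these cell types can express Acta2 and Tagln. Of striated muscle, 3 of 3 genes that could be tested were called higher, Acta1 (1.94 ± 0.55, adjusted p = 0.0141), Ckm (0.74 ± 0.19, adjusted p = 0.00853) and Myl1 (1.70 ± 0.24, adjusted p = 3.60e-04), whereas the fast myosin gene Myh1 was at 0 in 14 of 16 libraries and Tnnt3 in 4. Their sums were 12.9 to 38.8 and 33.9 to 80.6 CPM. Called higher without the 3 libraries were 7 fibroblast, 1 pericyte and 3 striated muscle genes, and without the 2 libraries 5, 2 and 2.

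No gene was called among 5 of endothelium, 4 of adipocytes, 4 of mesothelium, 3 of B cells and 4 of ileal enterocytes (edgeR, where 2 adipocyte genes and none of the others had an unadjusted p under 0.05). Limma voom called 1 ileal enterocyte gene, beside 42.5% of all genes in either direction. For mesothelium, which covers the muscle coat on the outside, sums were 6.60 to 20.7 CPM in PF and 5.71 to 31.7 CPM in EtOH mice, and for adipocytes they were 127 to 457 and 125 to 810 CPM. Of 8 epithelial genes, 2 were called higher, among them Krt18 (0.48 ± 0.13, adjusted p = 0.0102), and 1 lower, Krt20 (-0.66 ± 0.17, adjusted p = 0.00737), beside 18.3% and 17.6% of all genes. Limma voom called 5 in either direction, where it called 42.5% of all genes. The epithelial sum was 13820 to 19110 CPM in PF and 10430 to 17930 CPM in EtOH mice, lowest in fat-1 EtOH mice 3 and 4. Among epithelial genes 1 was called higher and 2 lower without the 3 libraries, and 0 and 1 without the 2. Of the large intestine genes, 4 of 4 that could be tested were called higher (1 without the 3 libraries and 2 without the 2), and Fxyd4 was at 0 in all 16 libraries. With the 3 libraries high in these genes left out, all 10 contractile genes were called higher averaged over genotypes, by a median of 0.79.

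**Figure D5:**
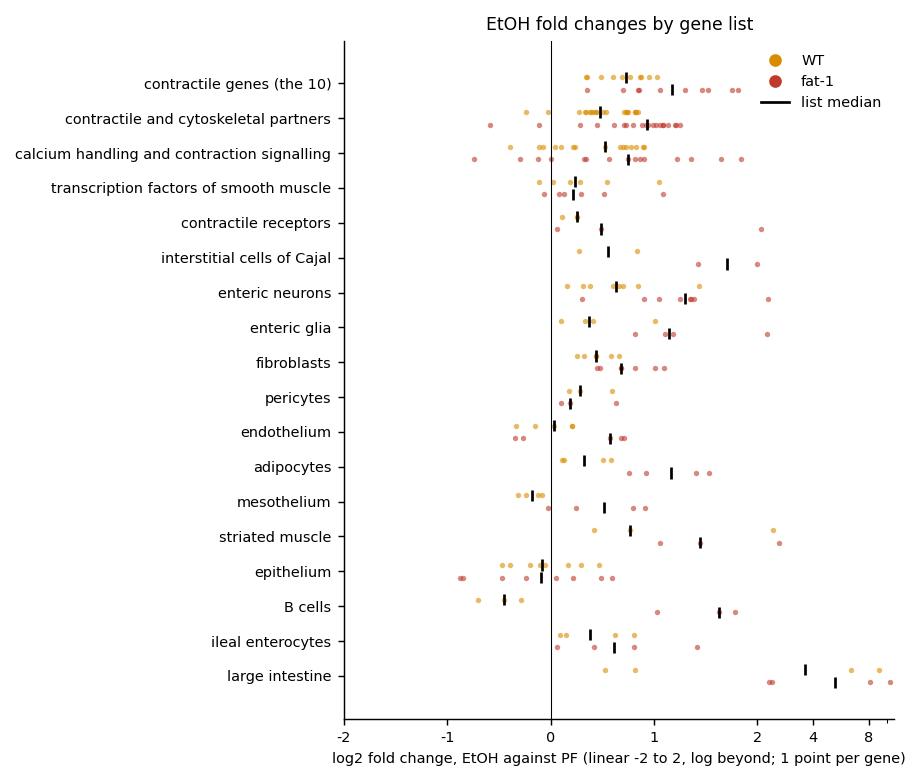
Log2 fold change with EtOH (x axis, linear from -2 to 2 and logarithmic beyond) of each gene tested in the 10 contractile genes and in each other gene list (rows), in WT and fat-1 mice, with the list's median as a bar. The contractile genes and their partners lie above 0 for nearly all genes, and the large intestine genes extend to the right.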

How the data were processed

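Stranded libraries, 1 per mouse, were made from poly(A) RNA of the ileum of 16 mice and sequenced in paired reads of 75 bases. The authors aligned the reads to mm10 (GRCm38) with tophat2 guided by Ensembl transcripts, and they deposited raw counts of reads per Ensembl gene, made with htseq and not normalized. The options of this counting are not given in the sources used here. FastQC 0.10.1 is named in the submitters' processing notes. Symbols, positions and exon lengths came from GENCODE M21 (26 of 21965 genes were absent from it), and promoter sequences from RefSeq (GRCm38.p6).

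The tests were run in edgeR 4.0.16 (R 4.3.3): filterByExpr on the 4 groups, TMM, and a robust quasi-likelihood fit of all 16 libraries with 1 mean per group and Benjamini-Hochberg adjustment at 0.05. The script was tested on simulated data. The study's own test, cuffdiff2, needs aligned reads and was not used. Errors are the SD between mice, or the SE of the fit. Both include counting error, and 3 counts are 0.246 to 0.421 CPM. RPKM are CPM per kilobase of all exons. Ratios within a library used log2 CPM with a prior count of 2 and an exact permutation test.

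The 10 genes and the other lists (contractile and cytoskeletal partners, calcium handling and contraction signalling, transcription factors, contractile receptors, interstitial cells of Cajal, enteric neurons and glia, fibroblasts, pericytes, endothelium, adipocytes, mesothelium, striated muscle, epithelium, B cells, ileal enterocytes and large intestine) were chosen with earlier results of these data known. Of each other list, up to 4 genes were open to being named: the 2 with the smallest p in the EtOH comparison averaged over genotypes and those with the highest and lowest change. The 10 genes with the highest r to the mean of the contractile genes were also named. Lmod1, Mylk and other genes singled out for their place among the 10 were so after their values were seen. A few genes of the other lists are counted but not reported here by name.

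Alternatives were DESeq2 1.42.0, limma 3.58.1 (voom with sample weights), DESeq2 size factors, upper-quartile normalization, a minimum of 1 count in some library or of 10 in each as the filter, a fit of only the groups compared, a replicate block, leaving out each library in turn, leaving out the 3 libraries with large intestine genes or the 2 low in ileal genes, and a prior count of 0.5. A fit on library totals without TMM, and the other lists and the ratios without these 3 or 2 libraries, were chosen after seeing the data. Tables and figures used python 3.11.15, scipy 1.17.1 and matplotlib 3.10.9.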

Additional observations from a re-analysis of the deposited data

Results flagged for a closer look

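Among the fat-1 PF mice, Cnn1 in mouse 3 stood apart at 94 CPM, where the nearest of the other 3 was at 69.5 CPM, a gap of 0.908 of the range of the group. It was the only library found outlying in 30 groups of 4 or 5 mice that were tested for the 10 genes, and chance alone gives about 1 in 20. The same mouse was the highest of its group for 8 of the 10 genes, with Acta2 at 323 and Actg2 at 167 CPM.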

How the results depend on the processing

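The rise of the 10 genes with EtOH averaged over both genotypes kept its direction and its call in 260 of 260 alternative values, and in fat-1 mice in 262 of 270, the exceptions being Mylk in 7 and Smtn in 1. In WT mice all 270 were higher, and the count of genes called was 0 in the reported fit, 2 with DESeq2, 10 with limma voom, 8 with only the WT groups in the fit and 3 without the 3 libraries with large intestine genes. The median log2 fold change in fat-1 mice was 0.832 without these 3 libraries and 1.583 on library totals without TMM (chosen after seeing the data), which also moved the median of all genes to 0.427. Averaged over genotypes, library totals gave 1.205, with 0.296 over all genes. Leaving out 1 library at a time gave medians of 0.623 to 0.810 in WT mice, 1.053 to 1.304 in fat-1 mice and 0.865 to 1.000 averaged. It left 9 to 10 genes called in fat-1 mice (28.5 to 39.4% of all genes in either direction) and 0 in WT mice (0 to 0.479%). The cause of these shifts was not tested.

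Between genotypes, no setting called any of the 10 genes, but several changed sign. Of fat-1 against WT in PF mice, Smtn was at -0.020 with upper-quartile normalization, at -0.063 on library totals and at -0.034 to 0.102 with 1 library left out, and without the 2 libraries low in ileal genes Acta2 was at 0.049, Actg2 at 0.012 and Tagln at 0.033. In EtOH mice the median was 0.077 with limma voom, with Myh11 at -0.054 and Synpo2 at -0.121, and -0.103 without the 3 libraries, with Acta2 at -0.016, Actg2 at -0.068, Myh11 at -0.216, Tagln at -0.054, Cnn1 at -0.103, Des at -0.104, Synpo2 at -0.184 and Smtn at -0.103. Mylk was at 0.025 there on library totals, and Synpo2 at -0.037 to 0.134 with 1 library left out. For the interaction, the median was 0.123 without the 3 libraries, with Synpo2 at -0.058 and Smtn at -0.116, and Mylk ran from -0.070 to 0.080 with 1 library left out. The ratio of Synpo2 to the other 9 genes in WT mice ran from -0.069 to 0.051 with 1 library left out and was 0.002 without the 3 libraries.

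No label says that mice with the same replicate number belong together, and their deviations from the group means were not more alike (mean correlation -0.0225 for 21 pairs of mice, and 0.00703 for the 74 whose numbers differed). With the number as a block, the median was 0.784 in WT, 1.264 in fat-1 mice and 0.997 averaged. In this order 0, 10 and 10 genes were called, beside 0.13%, 34.4% and 35% of all genes in either direction. With limma voom, the calls in the other lists moved most in WT mice, where it called 20.7% of all genes in either direction. It called 17 of 20 partners, 7 of 15 calcium and signalling genes and 6 of 7 fibroblast genes there.

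WT EtOH held 3 mice. In the fit of all 16 libraries, the spread behind each p-value was estimated for each gene over the mice of all 4 groups. The p-values in WT mice therefore also carry the spread among fat-1 mice. Reads of an antisense transcript are not separated for Tagln here.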
